A study of Homo sapiens with 12 samples.

Results

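The heterogeneous nuclear ribonucleoproteins (hnRNPs), the SR proteins and the core spliceosome factors were examined in TRPC1-silenced Huh7 cells. Members were taken by symbol from the platform annotation: genes whose names begin with HNRNP, SRSF, SF3A, SF3B, U2AF, SNRP, SNRNP or PRPF, together with MATR3, and with HNRPLL read as HNRNPLL. Pseudogenes were left out, which removed 4 probes, 2 of them detected. A probe was kept when its detection p-value, the chance that a signal this bright comes from the negative controls of its array, was under 0.01 on at least 5 of the 12 arrays. The rule gave 96 probes of 71 genes, out of 119 probes of 77 genes that carry such names and out of 13102 probes that passed the same filter. Of the 96 probes, 88 were detected on all 12 arrays. The member nearest inside the threshold, the dimmest MATR3 probe, was detected on 6 arrays, and the 2 nearest outside it on 2. No probe of HNRNPCL1, PRPF39, PRPF40B, SF3A1, SNRPE or SNRPN passed.

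Huh7 is a cell line, long established, that came from a hepatocellular carcinoma of well-differentiated type. Both groups received 2 µg of the vector pSUPERIOR.retro.neo+gfp, carrying a silencing sequence against the Ca2+ channel gene TRPC1 in the siTRPC1 group (6 samples) and empty in the control group (6 samples). RNA was taken after 48 h, and each sample was read on 1 Illumina bead array. The arrays read whole cultures, in which a part of the cells, judged in the methods by their GFP, had taken up the vector. No source states that the 6 samples of a group came from separate cultures, so the p-values measure the spread between these samples, which may be technical. In RNA of whole cultures, fewer cells of a kind and less RNA per cell cannot be told apart.

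Splicing removes introns from a pre-mRNA on the spliceosome, which assembles from small nuclear ribonucleoproteins (snRNPs). U2AF binds the end of the intron and brings in the U2 snRNP with its SF3A and SF3B proteins, and the PRPF proteins belong largely to the later U4/U6.U5 complex. SR proteins mostly promote, and hnRNPs often block, the use of nearby splice sites. Many genes of both families regulate their own mRNA through splicing, so that one gene may give several transcripts.

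The methods analysed 10 arrays: array 5 of each group was dropped because of how TRPC1 read by PCR related to the array. The 10-array comparison, siTRPC1 minus control with 5 arrays per group, is given first here and that of all 12 arrays after it. The silenced gene differed little on the arrays: TRPC1 had a log2 signal of 8.77 ± 0.03 in control and 8.59 ± 0.09 in siTRPC1 (SD, n = 5), a difference of -0.18, or 11.9% (limma adjusted p = 0.344, exact two-sided permutation p = 0.00794, the smallest that 252 splits allow). The choice of the 10 arrays rested on TRPC1 itself, so these p-values are not independent of it. In all 12 arrays the difference was -0.19 (limma adjusted p = 0.304, exact permutation p = 0.0303). There the groups overlapped for TRPC1, since siTRPC1 array 5, at 8.85, lay within the control range of 8.74 to 9.05. The 8 hepatocyte markers examined, ALB and AFP among them, were detected on all 12 arrays, and 6 of 8 markers of blood, endothelial and stromal cells on none. Mean intensity was lowest on control arrays 1 and 2, at 479.7 and 457.5, against 565.9 to 687.9 on the other 10 arrays. With arrays 1 and 2, 3 and 4, and 5 and 6 of each group taken as neighbours, the closest array of the same group was the neighbour for 11 of the 12 arrays. Neighbours are meant by replicate number only, since no label gives the positions of the arrays.

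Few splicing factor probes differed between the groups. In the 10 arrays, 4 of the 96 probes passed limma at an adjusted p under 0.05 (4.17%), beside 164 of all 13102 probes tested (1.25%). A rise was called on 1 probe each of HNRNPA3, HNRNPK and the U2AF subunit U2AF2 (3 probes, where 0.786% of all probes rose). HNRNPLL fell (1 probe, where 0.466% of all fell), and the U2AF2 probe was detected on only 3 of 6 control arrays. Arrays of a group resembled their neighbours, and with neighbouring arrays as a random block (correlation 0.327) HNRNPA3 alone of the 4 passed, while the adjusted p was 0.0649 for HNRNPK, 0.0784 for U2AF2 and 0.136 for HNRNPLL. In the 12 arrays 3 member probes passed, all higher in siTRPC1 and belonging to HNRNPA3, HNRNPK and MATR3 (the last detected on 1 control array), where 0.931% of all probes were called higher and 1.58% in either direction. At an unadjusted p under 0.05 there were 20 member probes (20.8%), against 16.9% of all probes. The median log2 difference was 0.016 over the members and -0.002 over all probes. The log2 difference was smaller than 0.25 in size in 82 member probes (85.4%), close to the 85.1% of all probes, and the 95% interval lay within 0.5 of zero in 77 (80.2%, against 79.3%). Values of the 2 groups did not overlap for 3 member probes, those of HNRNPK, HNRNPLL and PRPF38A (3.12%, against 3.85% of all probes). In the 12 arrays this held for PRPF38A alone, against 2.11% of all probes. The share of calls lay above the background on the strength of a few probes, and the share of probes without overlap lay below it. The calls of U2AF2 and MATR3 are a description, since both probes met the detection filter through the siTRPC1 group.

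**Figure D1:**
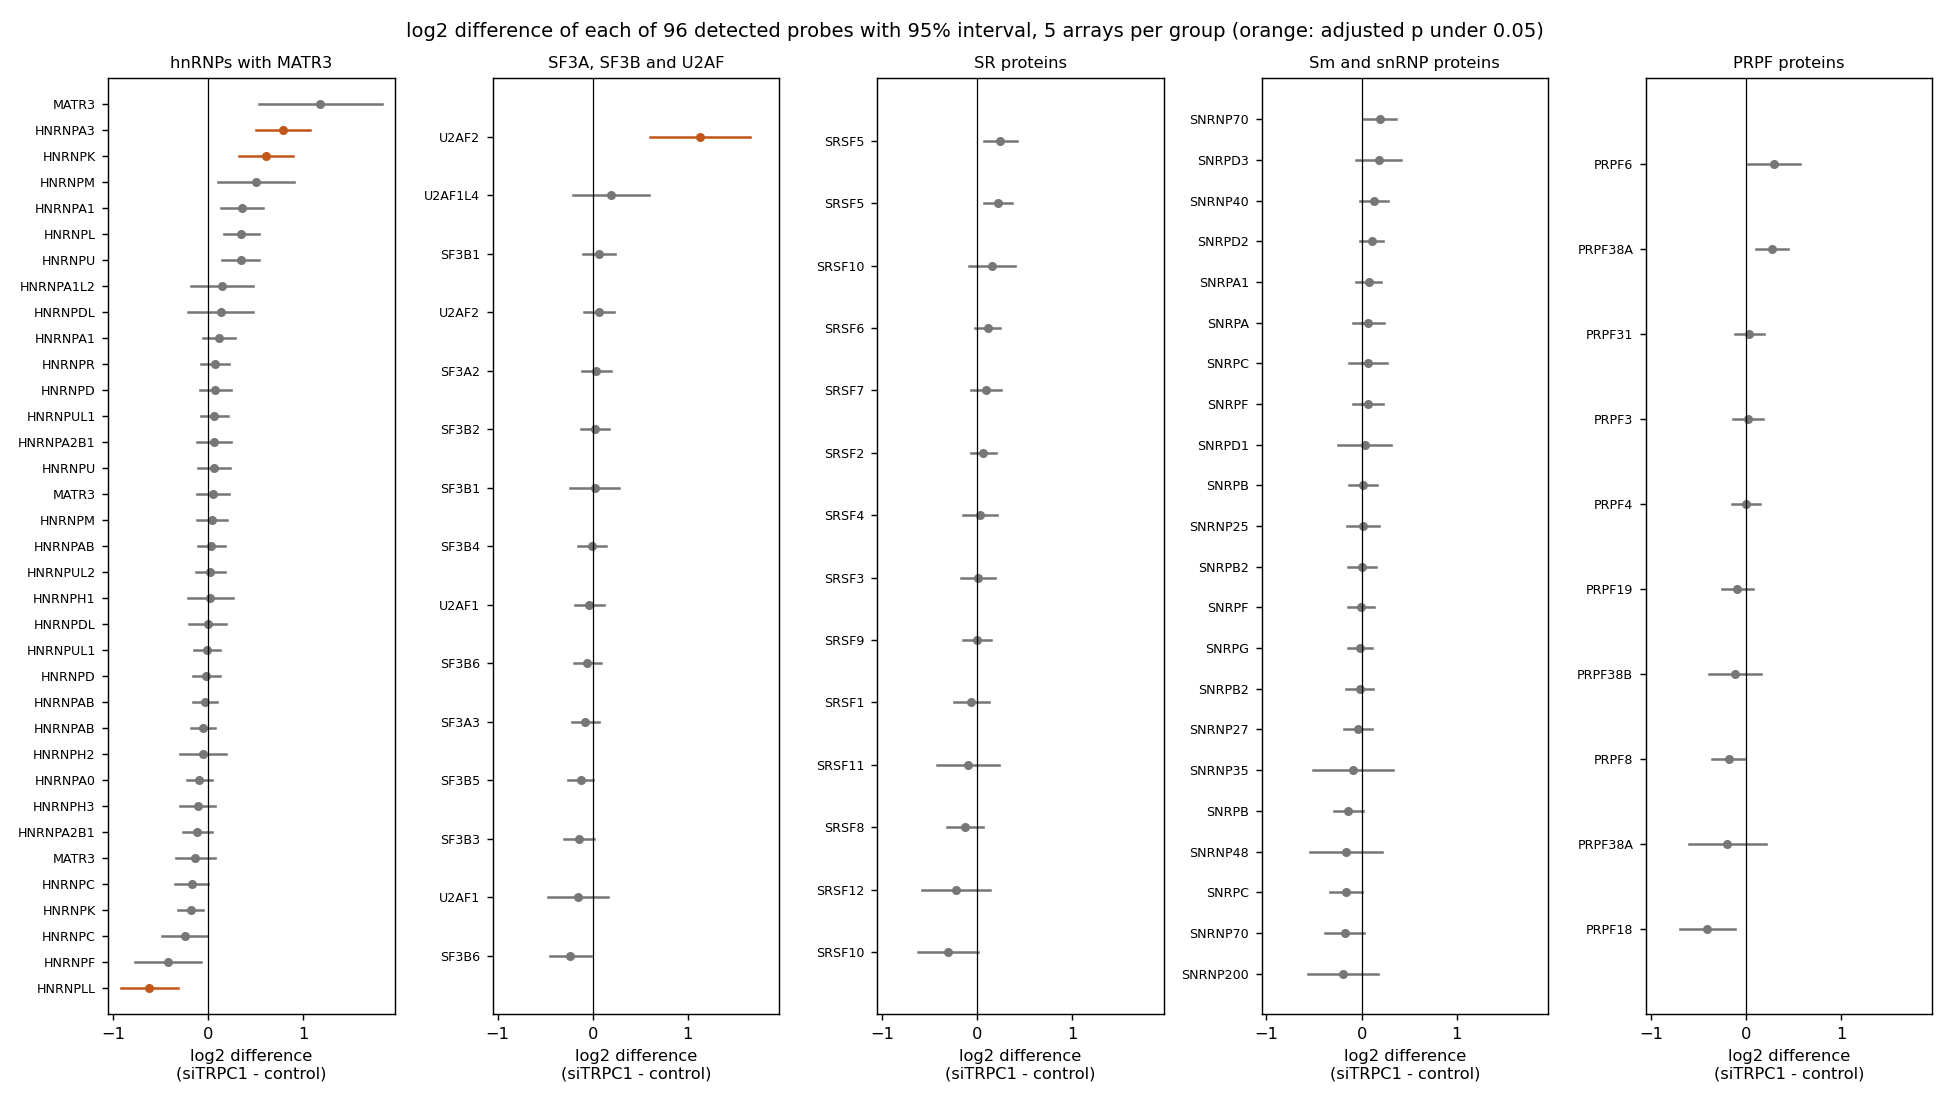
log2 difference (siTRPC1 minus control, x axis) of each of the 96 probes, by role, as a point with its 95% interval from limma, 5 arrays per group; probes with an adjusted p under 0.05 are orange. The 22 probes of Sm and snRNP proteins lie between -0.20 and 0.19, whereas the hnRNPs with MATR3 range from -0.62 to 1.18. The value of 1.18 is that of the dimmest MATR3 probe, detected on 1 control array, and the highest hnRNP value is 0.785, for HNRNPA3.

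The hnRNPs, with MATR3, held 3 of the 4 calls among 35 probes of 22 genes. HNRNPA3, an RNA-binding protein of the A/B subfamily, rose most firmly. Its log2 signal ran from 8.64 through a median of 8.93 to 9.66 in control and from 9.23 through 9.74 to 9.98 in siTRPC1 (6 arrays each). The highest control value was that of array 5, 9.66, which the methods left out, and the lowest siTRPC1 value, 9.23, lay below it and below control array 6 at 9.31, so the groups overlapped with and without array 5. The rise was 0.79 on the log2 scale (SE 0.14), or 1.72-fold (limma adjusted p = 0.00604, exact permutation p = 0.0159), and 0.65 in 12 arrays (adjusted p = 0.0185). HNRNPA3 is also listed among the study's own changed genes on these samples, so this is not independent of that list.

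HNRNPK, which binds C-rich RNA and DNA and takes part in transcription as well as splicing, was read by 2 probes. The dimmer, ILMN_1712357, ran from 8.75 through 9.42 to 9.62 in control and from 9.61 through 9.86 to 10.01 in siTRPC1. Control arrays 1 and 2 were the lowest at 8.80 and 8.75, the other 4 lay at 9.35 and above, and only control array 5 reached the siTRPC1 range. The probe rose by 0.61 (SE 0.14), or 1.52-fold (limma adjusted p = 0.0342, exact permutation p = 0.00794), and by 0.57 in 12 arrays (adjusted p = 0.0278). Without control arrays 1 and 2 the difference was 0.34 (adjusted p = 0.13). The brighter probe, ILMN_2378048, ran from 13.02 through 13.04 to 13.21 in control and from 12.84 through 12.91 to 13.02 in siTRPC1. It pointed the other way, with a difference of -0.19 (SE 0.06) that did not pass (adjusted p = 0.136).

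HNRNPLL, known as a regulator of CD45 splicing in lymphocytes, was the only member to fall. Its values were 8.02, 8.30 and 8.74 (lowest, median and highest) in control and 7.67, 7.74 and 8.14 in siTRPC1. Control arrays 1 to 3 were the highest, at 8.48 and above, and control arrays 4 to 6 lay near siTRPC1 arrays 2 and 5, so that the groups overlapped once the arrays numbered 5 were counted. The fall was -0.62 (SE 0.14), or 1.53-fold (limma adjusted p = 0.0367, exact permutation p = 0.00794), and in 12 arrays the difference of -0.50 did not pass (adjusted p = 0.0652).

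MATR3, a nuclear matrix protein that binds RNA and represses exons, had 3 probes kept. The dimmest, ILMN_1660179, was detected on 1 of 6 control and 5 of 6 siTRPC1 arrays, so most of its control values lie near background. It met the detection filter only through the siTRPC1 group, so that it had to be higher there, and its call and the size of its difference are given as a description. Its control values ran from 5.27 through 6.31 to 7.01, and those of siTRPC1 from 6.77 through 7.12 to 8.18. Control arrays 1 and 2 were again the lowest, at 5.27 and 5.67, while control array 6 lay inside the siTRPC1 range. The difference was 1.18 (SE 0.31) in 10 arrays, where it did not pass (limma adjusted p = 0.0611), and 1.08 in 12 arrays, where it did (adjusted p = 0.0478). The brighter MATR3 probes had differences of -0.14 (SE 0.10, adjusted p = 0.507) and 0.05 (SE 0.08, adjusted p = 0.793). On the brightest of them, ILMN_1815107, control arrays 1 and 2 were the highest of all arrays, at 13.14 and 13.16.

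**Figure D2:**
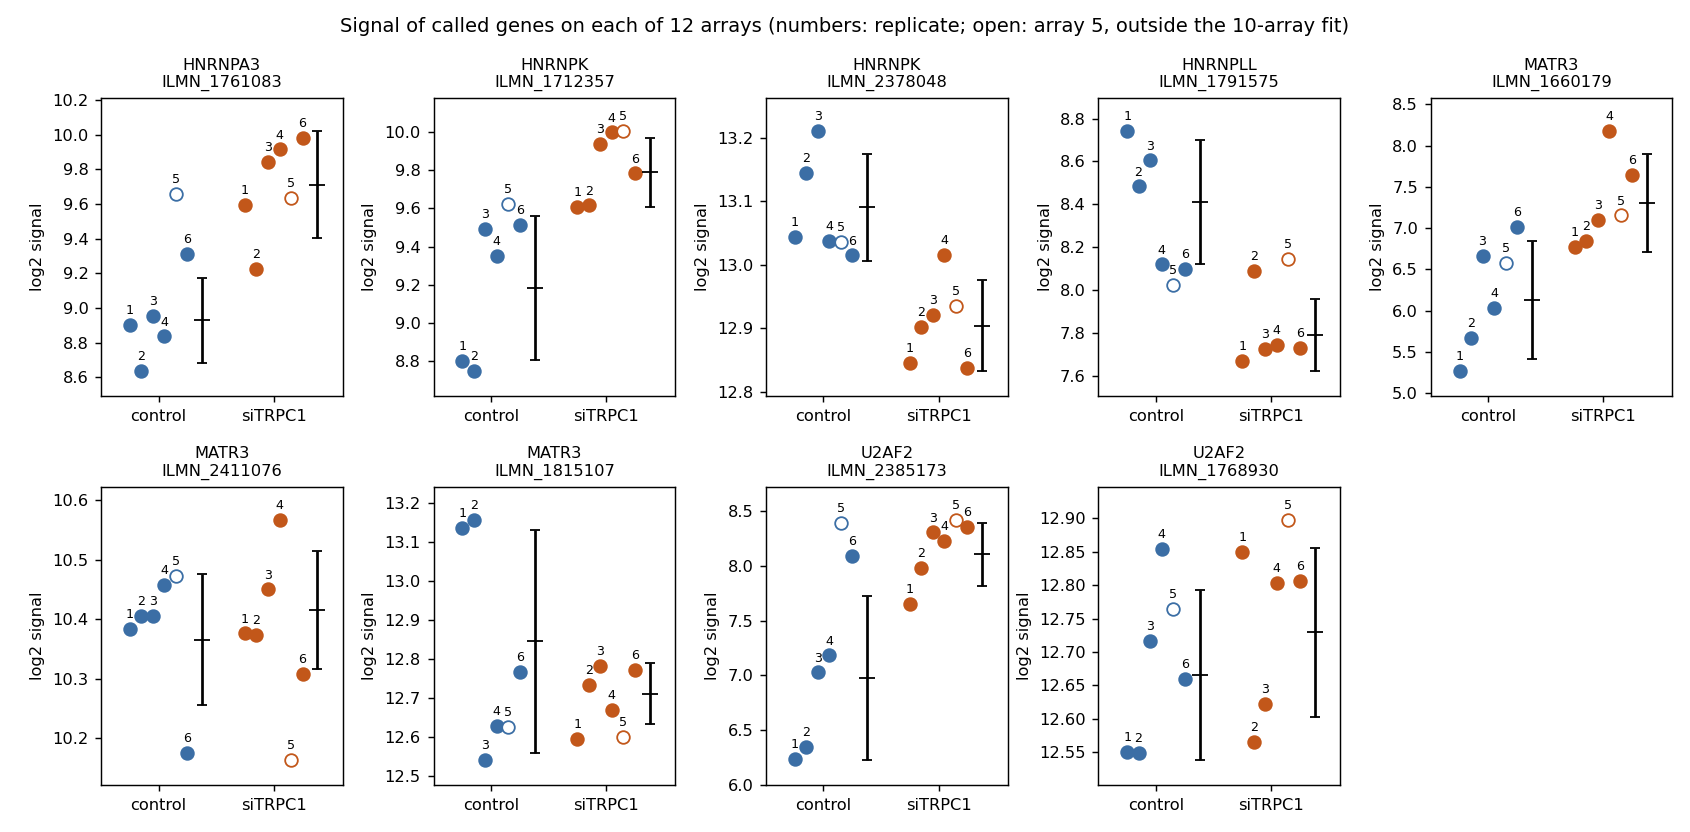
log2 signal (y axis) of all kept probes of HNRNPA3, HNRNPK, HNRNPLL, MATR3 and U2AF2 on each array; numbers are replicate numbers, open circles are the arrays outside the 10-array comparison, and bars show mean and SD of the other 5. Control arrays 1 and 2 lie lowest for the dimmer probes of HNRNPK, MATR3 and U2AF2 and highest for the brightest MATR3 probe, at 13.14 and 13.16.

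The other hnRNP probes did not pass. After their values were seen, 3 that came near were picked out: HNRNPL, HNRNPU and HNRNPA1, abundant pre-mRNA binding proteins. HNRNPL had a difference of 0.35 (SE 0.09, limma adjusted p = 0.0518), HNRNPU of 0.34 on 1 probe (adjusted p = 0.0696) and 0.06 on the other, and HNRNPA1 of 0.36 (adjusted p = 0.099) and 0.11. The 2 largest negative values were those of HNRNPLL and of HNRNPF, a binder of G-rich RNA, at -0.42 (SE 0.17, adjusted p = 0.206). Over the 35 probes the median was 0.03, with 20 positive. HNRNPC, HNRNPA2B1, HNRNPD, HNRNPAB, HNRNPR and HNRNPUL1 stayed within 0.25 of zero on all of their probes. hnRNP genes have processed pseudogenes of nearly the same sequence, and whether a probe also binds their transcripts was not tested. The study's own list of raised genes on these samples includes an HNRNPK pseudogene, HNRNPKP4. Whether the dimmer HNRNPK probe reads the gene or this pseudogene was not tested.

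Among the proteins that recognise the end of the intron, SF3A, SF3B and U2AF, 1 of 15 probes passed. U2AF2 encodes the large U2AF subunit, which binds the polypyrimidine tract. Its dimmer probe, ILMN_2385173, was detected on 3 of 6 control and 6 of 6 siTRPC1 arrays. It ran from 6.24 through 7.10 to 8.39 in control and from 7.65 through 8.27 to 8.42 in siTRPC1. Control arrays 1 and 2 stood at 6.24 and 6.35 and arrays 5 and 6 at 8.39 and 8.09, within the siTRPC1 range, so the control group spanned more than the difference between the groups. The rise was 1.13 (SE 0.26), or 2.19-fold (limma adjusted p = 0.0336, exact permutation p = 0.0238). The 3 control arrays that detected this probe would not by themselves have met the filter of 5 arrays. Its call and the size of its rise therefore lean on the siTRPC1 group and are given as a description. With detection required on all fitted arrays this probe was not tested. In 12 arrays the value of 0.95 did not pass (adjusted p = 0.0758). The brighter U2AF2 probe lay between 12.55 and 12.85 in control and between 12.57 and 12.90 in siTRPC1, a difference of 0.06 (95% interval -0.09 to 0.22).

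The remaining probes of these complexes lay between -0.24 and 0.19. The highest was U2AF1L4, a U2AF1 paralogue, at 0.19 (SE 0.19), and the lowest were 1 probe of SF3B6, the subunit at the branch point, at -0.24 (SE 0.11, limma adjusted p = 0.252), and 1 of U2AF1, the small U2AF subunit, at -0.16 (SE 0.15). SF3B1, which holds the branch point helix, had 0.07 and 0.02 on its 2 probes.

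None of the 14 probes of the 12 SR proteins passed, and 2 were below 0.05 unadjusted (limma, 10 arrays, 14.3%, against 16.9% of all probes). Both belonged to SRSF5, whose 2 probes had nearly equal differences. The first, ILMN_1761996, ran from 11.86 through 12.21 to 12.39 in control and from 12.26 through 12.33 to 12.40 in siTRPC1, and the second, ILMN_2378868, from 11.96 through 12.06 to 12.21 and from 12.13 through 12.28 to 12.45. The siTRPC1 values lay in the upper part of the control range or above it on both. The differences were 0.24 (SE 0.08, adjusted p = 0.144) and 0.22 (SE 0.07, adjusted p = 0.134). At the other end were 1 probe of SRSF10 at -0.31 (SE 0.15, adjusted p = 0.308), whose second probe read 0.15, and SRSF12 at -0.22 (SE 0.17). SRSF1 and SRSF2, the classical SR proteins, had -0.06 and 0.06.

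The Sm and snRNP proteins form the core of the spliceosomal particles, and none of their 22 probes of 17 genes passed. Only 1 was below 0.05 unadjusted (limma, 4.55%, against 16.9% of all probes). SNRNP70, a U1 protein that contacts the RNA, gave both a high and a low value: 0.19 (SE 0.08) on ILMN_1732053 and -0.18 (SE 0.10) on ILMN_2380839. SNRPD3, of the Sm ring, had 0.18 (SE 0.11), and SNRNP200, the helicase that unwinds U4/U6, had -0.20 (SE 0.18). All 22 differences were under 0.25 in size, against 85.1% of all probes. Most of the 22 are bright, and of all probes at or above the median signal 92.9% were under 0.25. The 95% interval lay within 0.5 of zero for 19 of the 22.

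None of the 10 PRPF probes of 9 genes passed, although 4 were below 0.05 unadjusted (limma, 40.0%, against 16.9% of all probes). PRPF38A is a factor needed to activate the assembled spliceosome. It held the only 1 of the 96 member probes whose groups did not overlap in all 12 arrays, against 2.11% of all probes. Its probe ILMN_1656274 ran from 9.35 through 9.51 to 9.63 in control and from 9.64 through 9.76 to 9.90 in siTRPC1, so that the lowest siTRPC1 array lay just above the highest control array. The difference was 0.27 (SE 0.08, limma adjusted p = 0.101, exact permutation p = 0.00794) and, in 12 arrays, 0.27 (adjusted p = 0.0645). Its second, dimmer probe, detected on 4 of 6 control and 5 of 6 siTRPC1 arrays, had -0.20 (SE 0.20). PRPF6, which bridges the tri-snRNP, had 0.30 (SE 0.13, adjusted p = 0.25), and PRPF18, a second-step factor, had -0.41 (SE 0.14, adjusted p = 0.137).

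The DNA at the starts of the 4 genes with a probe that passed in 10 arrays is shown here. For each, the 250 bases before the most upstream RefSeq start are printed from GRCh38.p14, 5′ to 3′ along the gene. Capitals mark a CCAAT box (CCAAT), a GC box (GGGCGG), an ETS core (CCGGAAG) or an E-box (CACGTG) on either strand; in U2AF2 several GC boxes overlap or abut.
HNRNPA3, chr2:177212544-177212793, plus strand: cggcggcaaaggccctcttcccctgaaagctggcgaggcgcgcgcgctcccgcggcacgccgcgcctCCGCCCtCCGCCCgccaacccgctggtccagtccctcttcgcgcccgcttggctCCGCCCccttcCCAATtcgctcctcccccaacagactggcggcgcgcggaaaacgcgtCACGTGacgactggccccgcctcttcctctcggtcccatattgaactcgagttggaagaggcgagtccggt
HNRNPK, chr9:83980616-83980865, minus strand: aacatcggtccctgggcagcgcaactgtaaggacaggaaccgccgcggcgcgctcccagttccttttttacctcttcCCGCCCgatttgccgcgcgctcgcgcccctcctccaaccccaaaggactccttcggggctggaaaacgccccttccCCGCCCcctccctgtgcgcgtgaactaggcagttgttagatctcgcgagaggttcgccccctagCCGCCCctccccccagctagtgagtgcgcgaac
HNRNPLL, chr2:38602929-38603178, minus strand: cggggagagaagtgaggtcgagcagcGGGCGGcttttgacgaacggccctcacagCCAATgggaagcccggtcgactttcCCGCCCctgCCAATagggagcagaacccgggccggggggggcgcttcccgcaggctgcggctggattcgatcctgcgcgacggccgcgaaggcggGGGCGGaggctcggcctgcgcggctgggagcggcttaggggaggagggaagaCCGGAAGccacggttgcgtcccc
U2AF2, chr19:55654785-55655034, plus strand: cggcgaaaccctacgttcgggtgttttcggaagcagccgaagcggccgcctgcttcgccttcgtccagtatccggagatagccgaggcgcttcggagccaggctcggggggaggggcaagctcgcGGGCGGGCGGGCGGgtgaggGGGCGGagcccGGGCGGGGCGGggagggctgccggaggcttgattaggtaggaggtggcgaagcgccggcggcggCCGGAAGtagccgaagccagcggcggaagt
All 4 upstream sequences held GC boxes, as did 61.5% of the 65 member genes found in the RefSeq table and 42.2% of all 27305 genes in it. The ETS core stood in HNRNPLL and U2AF2, in 32.3% of member genes and in 8.78% of all. HNRNPA3 and HNRNPLL held CCAAT boxes, as did 46.2% of members and 33.0% of all genes, and HNRNPA3 alone of the 4 held the E-box (12.3% and 6.46%). TATAAA, TGACGTCA, GAANNTTC and the NRF1 site were searched too on both strands (in 11.2%, 1.75%, 5.85% and 1.13% of all genes) and matched none of the 4. The 3 genes with a probe that rose therefore shared the GC box, which HNRNPLL, whose probe fell, held as well. The brighter probes of HNRNPK and U2AF2, at -0.19 and 0.06, did not pass.

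Probes of one gene disagreed in several places, and this was tested directly as the brighter minus the dimmer probe within each array, over 2822 probe pairs of 2009 genes. Of 27 pairs in 23 member genes, 0 passed limma after adjustment, as for all genes (0 of 2822, or 0.0%), while 7 member pairs (25.9%) were below 0.05 unadjusted, against 9.67% of all pairs. The 7 include the U2AF2 pair and 2 MATR3 pairs, which share their dimmer probe. Those dimmer probes met the detection filter through the siTRPC1 group, so the share of 25.9% is a description. The 2 probes of a pair differed by 0.17 at the median over members and by 0.12 over all pairs. For HNRNPK the difference between the probes was -0.79 (SE 0.17, limma adjusted p = 0.165, exact permutation p = 0.00794), with a 95% interval of -1.16 to -0.43. For U2AF2 it was -1.06 (SE 0.28, adjusted p = 0.231), with the dimmer probe detected on 3 of 6 control arrays. For the dimmest MATR3 probe against the other 2 it was -1.31 and -1.13 (adjusted p = 0.294 for each). Those MATR3 values rest on a control group in which that probe was detected on 1 of 6 arrays. The values of both genes are a description only. In each of these genes the dimmer probe had the higher difference between siTRPC1 and control.

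The annotation ties both HNRNPK probes to one transcript, and both U2AF2 probes likewise, whereas the dimmest MATR3 probe is tied to another transcript than its partners. Of the 27 pairs, 17 shared a transcript in the annotation and 10 did not. The 2 probes differed by 0.19 at the median in the former and by 0.11 in the latter. The part of transcript variants in these differences was not tested. In PRPF38A, SNRNP70 and HNRNPU, the other genes below 0.05 unadjusted, the brighter probe had the higher difference. The probes of SRSF5 were close together, with 0.03 between them (95% interval -0.21 to 0.27). The 95% interval lay within 0.5 of zero in 12 of the 27 pairs and reached past that in the others.

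**Figure D3:**
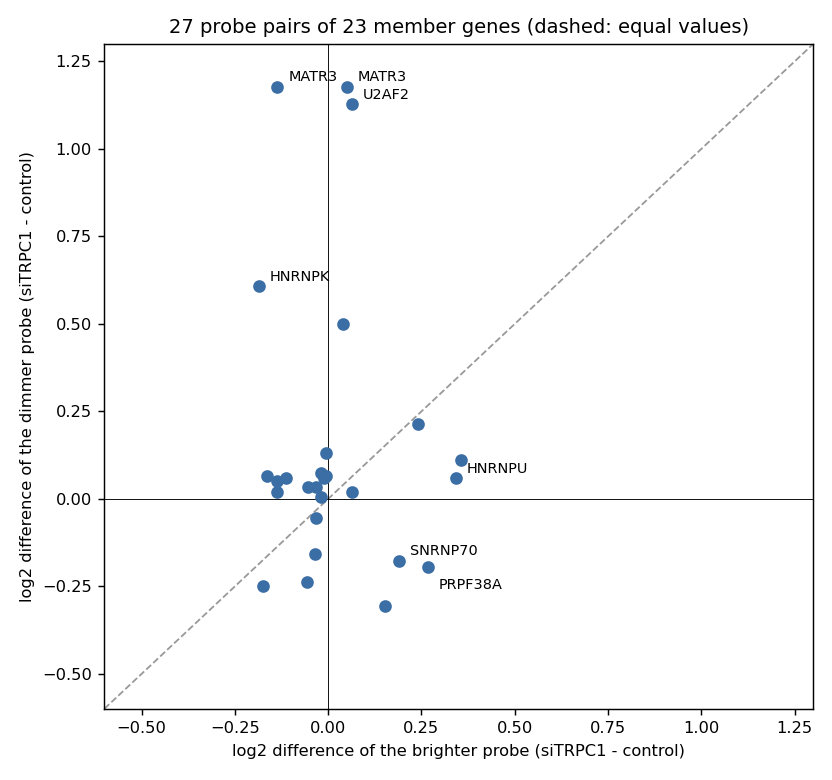
log2 difference (siTRPC1 minus control, 10 arrays) of the brighter probe (x axis) and of the dimmer probe (y axis) for 27 probe pairs of 23 genes, with the dashed line at equal values; genes with an unadjusted p under 0.05 for the difference are named. HNRNPK, U2AF2 and MATR3 lie far above the line, and 16 of the 27 pairs have opposite signs, as do 1055 of the 2822 pairs of all genes; many of these differences are near zero.

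By signal, 26 member probes lay below the median of all tested probes and 70 at or above it. In the 10 arrays 3 of the former passed limma (HNRNPA3, HNRNPLL and U2AF2), or 11.5%, against 0.717% of all dim probes. Of the latter 1 passed (HNRNPK), or 1.43%, against 1.79% of all bright probes. In the 12 arrays 2 and 1 passed, beside 59 of all 6551 dim and 148 of all 6551 bright probes. The dim calls include U2AF2 in 10 arrays and MATR3 in 12, probes detected less often in control that met the detection filter through the siTRPC1 group. The shares that count them are therefore a description. The difference between dim and bright probes was not tested.

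Control arrays 1 and 2 moved with several of these results. They were the 2 lowest or the 2 highest of the 12 arrays for 30 of the 96 member probes (31.2%), against 22.5% of all probes. Without them HNRNPA3 alone among the members passed (limma, difference 0.68), and the differences were 0.67 for U2AF2 (adjusted p = 0.13) and -0.48 for HNRNPLL (adjusted p = 0.166). The part of these arrays' low intensity in the result was not tested. Leaving out control array 1 or 2, or siTRPC1 array 3, 4 or 6, also left HNRNPA3 as the single call, whereas leaving out control array 6 gave 8 calls, which added HNRNPL, HNRNPM, HNRNPU and MATR3. HNRNPA3 passed in all 10 fits with 1 array left out, HNRNPK in 5, U2AF2 in 4 and HNRNPLL in 3.

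**Figure D4:**
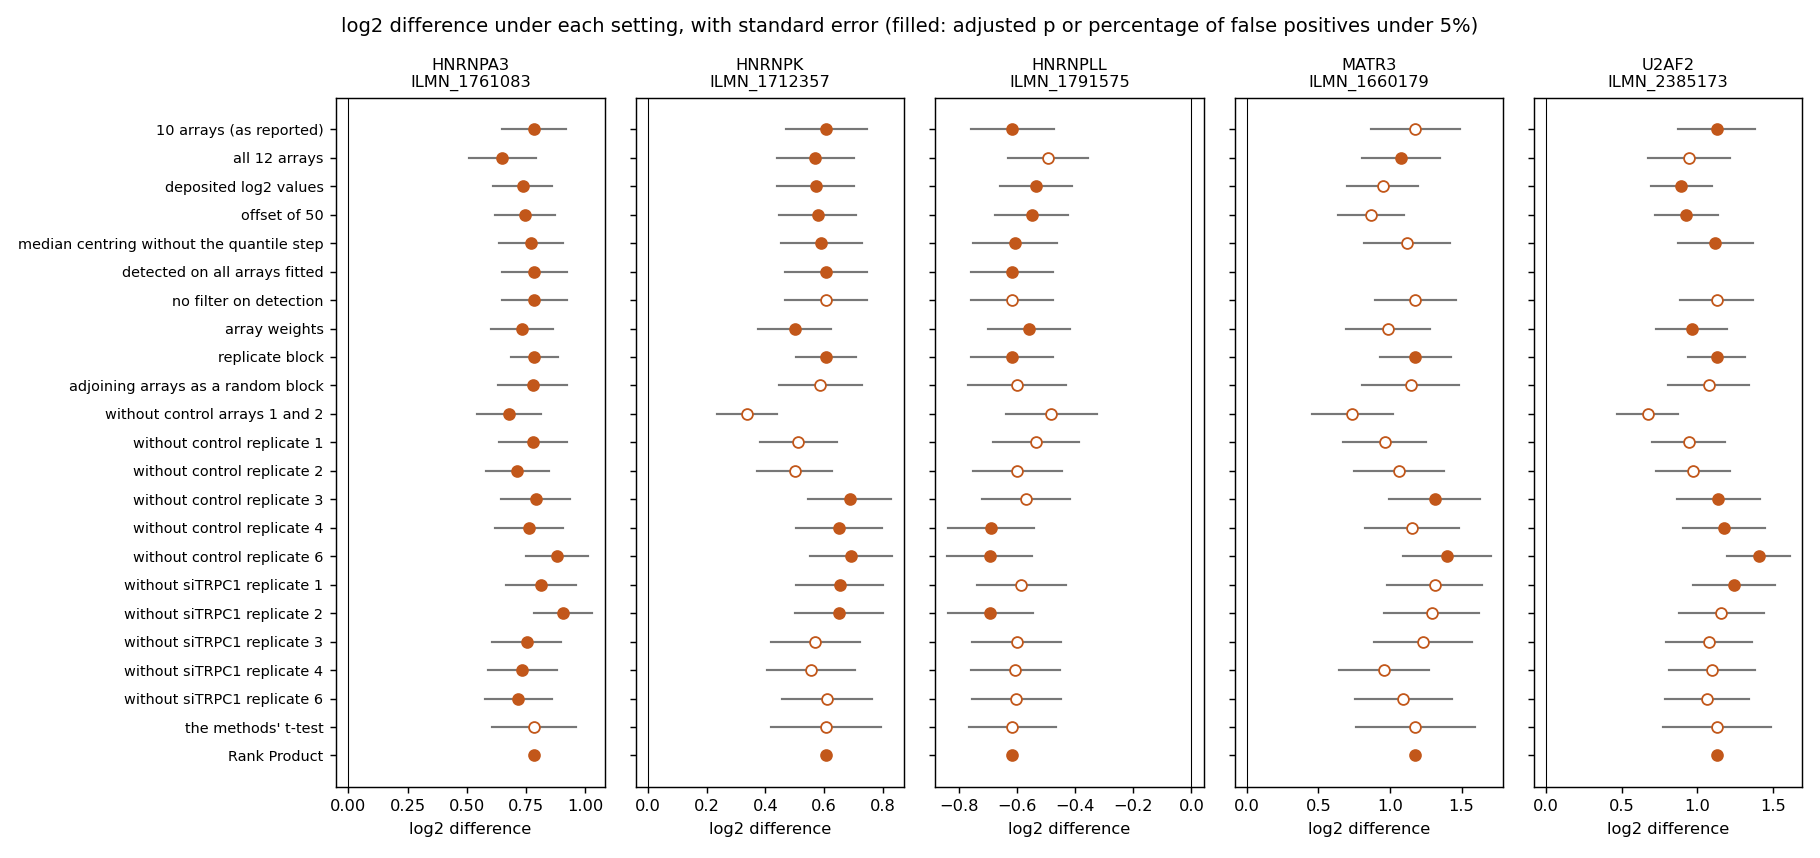
log2 difference (x axis, siTRPC1 minus control) of 5 probes under each setting (y axis), with standard errors where the method gives one; filled circles passed at 5%. HNRNPA3 is filled in every setting but the methods' t-test, and each of the 5 probes keeps its sign throughout. Adjoining arrays on the y axis are neighbours by replicate number.

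The wider splicing machinery, 153 genes outside the member families such as LSM proteins, helicases, exon junction proteins and splicing regulators, was counted for comparison. Of these, 133 had a tested probe, 183 probes in all, and 3 probes passed limma in 10 arrays (1.64%, against 1.25% of all probes), with a median difference of -0.02. All 3 were regulators. MBNL2, a muscleblind splicing regulator, ran from 10.40 through 10.48 to 10.75 in control and from 10.06 through 10.11 to 10.21 in siTRPC1. The fall was -0.43 (SE 0.08, limma adjusted p = 0.0105), with -0.50 (adjusted p = 0.151) on its second probe. In the 12 arrays its groups did not overlap. This held for 3 of the 183 probes, the others being of LSM7 and QKI, against 2.11% of all probes. TAF15, an RNA-binding protein, rose by 0.42 (SE 0.10, adjusted p = 0.0479), with 0.20 on its second probe. WTAP, a subunit of the m6A methyltransferase, rose by 0.69 (SE 0.17, adjusted p = 0.0483) on 1 probe and had 0.12 and -0.09 on the others. In 12 arrays MBNL2 alone passed, and with neighbouring arrays as a random block none of the 3 did (adjusted p = 0.0504 for MBNL2, 0.0931 for TAF15 and 0.13 for WTAP). None of the LSM, snRNP assembly, exon junction, helicase or PRP19-complex probes passed.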

How the data were processed

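RNA of Huh7 cells with the TRPC1 silencing vector or the empty vector was read on 12 arrays of 48803 probes. The deposited intensity values were background-subtracted by the authors in GenomeStudio and not normalised, with a deposited detection p-value per probe. The deposited log2 values are the authors' lumi output (version not given in the sources used here), quantile-normalised over all arrays, and were used as an alternative. Background correction and quantile normalisation used limma 3.58.1 (neqc, offset 16, all 12 arrays together; R 4.3.3). The 13102 probes with detection p under 0.01 on at least 5 of 12 arrays were tested with lmFit and eBayes with a trend, condition as the single term, Benjamini-Hochberg over all of them at 0.05, two-sided. Probe pairs were fitted likewise without trend. Permutation tests are exact and two-sided, over 252 splits in 10 arrays and 924 in 12. Levels of different probes are not comparable, and the number of arrays limits the precision.

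Members, lists and tests were chosen with earlier results of these data known. Named were all members passing in 10 or 12 arrays, other probes of those genes, the 2 highest and 2 lowest differences per role, genes with a differing probe pair, and other splicing genes passing in 10 arrays; others are said to have been picked after their values were seen or serve as examples. Gene symbols came from the platform annotation, in which 28098 probes have 1 symbol, 13 several and 20692 none. Probe sequences were not used here. The fits were tested on simulated data. Alternatives covered the deposited values, offset, normalisation, detection filter, array weights, blocks, left-out arrays, the methods' t-test and Rank Product with 100 permutations.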

Additional observations from a re-analysis of the deposited data

Results flagged for a closer look

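In 4 of 58 groups of 6 arrays examined, the highest or lowest array stood apart from the others by more than Dixon's limit of 0.625 of the group's range. Chance alone flags about 1 in 20 groups. For TRPC1, control array 5 stood at 9.05 on the log2 scale, the other controls at 8.74 to 8.82. For the dimmer PRPF38A probe, siTRPC1 array 6 stood at 6.80, the others at 7.17 to 7.36. For the MATR3 probe ILMN_2411076, control array 6 stood at 10.18, the others at 10.38 to 10.47. For WTAP, siTRPC1 array 1 stood at 9.21, the others at 9.45 to 9.56.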

How the results depend on the processing

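The 4 member calls were the same 4 with the deposited log2 values, an offset of 50, median centring and array weights. Requiring detection on all fitted arrays also gave 4, with HNRNPL in place of U2AF2, and Rank Product gave 5, adding MATR3. Only 1 member passed without a detection filter, with neighbours by replicate number as a random block (correlation 0.327) and without control arrays 1 and 2. By the methods' t-test 0 passed after adjustment, against 15 members (15.6%) and 14.6% of all probes at its unadjusted threshold. With 1 array left out, 1 to 8 members passed. Of all tested probes 164 passed: 34 without a filter, 30 with the neighbour block, 4 by the t-test and 37 to 306 with 1 array left out. Median centring gave 62 higher and 59 lower, against 103 and 61. Of the other splicing genes, 1 passed in all 12 arrays, 1 with median centring and 0 with the neighbour block. Without control arrays 1 and 2 it was 1, and with 1 array left out 1 to 5. No member pair of probes differed after adjustment except that 2, those of HNRNPK and U2AF2, did without control array 6 (range 0 to 2). The cause of these changes was not tested.

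Replicate numbers did not pair the arrays (correlation of deviations -0.07 to 0.03). With the replicate number as a block, 6 members passed, adding HNRNPL and MATR3, with 152 of all probes, 3 other splicing probes and 0 probe pairs.

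Signs reversed only for small differences that had not passed. Without control arrays 1 and 2 these were PRPF38A ILMN_1675626 at 0.067, U2AF1 ILMN_2362368 at 0.063, the brighter U2AF2 probe at -0.014, SNRNP200 at 0.023 and MATR3 ILMN_1815107 at 0.065. In all 12 arrays MATR3 ILMN_2411076 was at -0.010. Dim probes had the wider error: the median SE was 0.15 in the 26 dim member probes and 0.08 in the 70 others.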
